A study of Sus scrofa with 20 samples.

Results

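Fetal tags were taken as the 200 short cDNA tags, of 801159 distinct tags in 20 libraries of pig longissimus muscle, that stood highest from 49 to 91 days post-coitus (dpc) over all other ages. The level of a tag was its count per 1000000 clean tags of the library (TPM), and a tag not listed in a library was set to 0. Each tag was given a ratio, its lowest TPM among the 8 libraries of 49, 63, 77 and 91 dpc (here the fetal libraries) plus 1, over its highest TPM among the 2 libraries of 35 dpc and 8 postnatal libraries (here the 10 low libraries) plus 1. The tags were thus chosen by their own TPM in 18 of the 20 libraries. The 200 with the highest ratio were kept and are called F1 to F200 in the order of that ratio. The Landrace libraries of 120 and 180 days postnatal (dpn) did not enter the ratio. Because the ratio chose the tags, the difference between 49 to 91 dpc and the other ages is described below without a test.

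Landrace (LR), a lean Western breed, and Lantang (LT), a fatter and slower growing Chinese breed, were each sampled at 10 ages, namely 35, 49, 63, 77 and 91 dpc and 2, 28, 90, 120 and 180 dpn. Each library came from equal amounts of RNA of 3 animals of one breed and age, male fetuses before birth and boars after it, which were castrated after 2 weeks. The libraries held 2157111 to 5322022 clean tags. There was 1 library per breed and age, so that no pool was replicated and the 4 fetal ages stood in for replicates in the comparison of the breeds. All p-values therefore measure the spread between single pools.

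Muscle fibres form before birth in the pig. A first set of primary fibres is laid down early and serves as the scaffold for a larger set of secondary fibres, which are formed during the middle of gestation, and after birth muscle grows by enlargement of fibres that already exist. Fetal fibres use developmental forms of several contractile proteins that are replaced around birth. In digital gene expression (DGE) profiling, NlaIII cuts cDNA at CATG and the bases that follow the last such site are meant to be read. Ideally a tag then marks 1 place in a transcript and its count measures how often that transcript was sampled. The paper states that alternative splicing or incomplete digestion can give tags from earlier sites. It also reports tags that matched several genes or the antisense strand. A tag count is therefore not always the count of a single transcript. The files pair no tag with a gene and reference transcripts were not used here. Values are therefore given for tags. For the same reason the labelled tissue could not be checked against marker genes. In a bulk sample, fewer cells that hold a transcript and less of it per cell cannot be told apart.

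The tags that carry the results are shown first, 5′ to 3′, with the NlaIII site in capitals and the 17 bases that follow it in lower case. These are the 10 tags with the highest ratio. Of them, F4 differs in 1 base from a far more abundant tag with a ratio of 1.24, as described below.
F1: CATGagtgcaagctcagatgc
F2: CATGataaagaataataataa
F3: CATGgcattttcttacacctt
F4: CATGtgttttagagaaattac
F5: CATGagagaagagtaaaggaa
F6: CATGtgtgcttatgccccgaa
F7: CATGgccaccctcccccgcga
F8: CATGactcttcaatgtcaagg
F9: CATGtctctctagattgttac
F10: CATGaggaggagggaagaggg

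The 5 tags with the highest mean TPM over the 8 fetal libraries carried most of the summed level, and 4 of them are shown.
F104: CATGaagatcaagattattgc
F55: CATGagctggaagaggccgag
F117: CATGcaaaaggaaatcactgc
F93: CATGggacgccagagttgagg

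Among the tags called in the comparison of the breeds, these had the largest differences, the first 4 with a higher level in LR and the last 4 with a higher level in LT.
F196: CATGgataccagcagggttcc
F164: CATGggaagtgtggcgagtgg
F183: CATGgttcacccaaagtaccg
F49: CATGgccacggagagcagact
F167: CATGtggttgtagcggaggtt
F156: CATGatgaccggccgtgctgc
F72: CATGgatagatgctcccgaga
F80: CATGaacgtcaagcactggcc

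The remaining tags named below are 1 tag that fell from 49 to 91 dpc (F153), 2 with the highest level in the libraries left out of the ratio (F163 and F166), and 2 just inside the limit of the choice (F199 and F200).
F153: CATGgtgaatttttttaattg
F163: CATGgttcacactcagctgcg
F166: CATGtgaagcagtgttgattc
F199: CATGctttaggaagaagcaga
F200: CATGaaacgacttacaacaga

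The ratio ran from 1.38 to 4.14 with a median of 1.56, and 687 of all tags had a ratio above 1. It was 3 or more in 3 tags and 2 or more in 14. F199 had a lowest fetal level of 8.77 TPM, a highest level elsewhere of 6.10 TPM and a ratio of 1.38. F200 and the next tag outside the choice, catgaaattctgaacaacttc, both had a lowest fetal level of 0.376 TPM, which was 2 counts, and no count in the 10 low libraries, so that alphabetical order set the limit between them. The tag that followed, catgaagatcaagattGttgc, had the same values and is 1 base from F104, the differing base being in capitals. Most fetal tags were of low abundance. The mean over the 8 fetal libraries ran from 0.670 to 3820 TPM with a median of 3.62 TPM, 115 tags were below 5 TPM, 65 were at 10 TPM or more and 18 at 100 TPM or more.

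The fetal tags were not all silent at the other ages. No count in any of the 10 low libraries was found for 90 of the 200 tags, against 105 of the 58626 tags that were found in all 8 fetal libraries. At the depth of those libraries, 3 counts, the smallest amount taken as detected, stood for 0.585 to 1.39 TPM. For the other fetal tags the highest level outside 49 to 91 dpc was most often at the nearest ages. It lay in LR at 35 dpc for 40 tags, in LT at 35 dpc for 31, in LT at 2 dpn for 18 and in LR at 2 dpn for 13. Of the 90 tags, 3 had a count in LR at 120 or 180 dpn, which left 87 that were read at 49 to 91 dpc alone within this depth. Tags seen once in a library had been removed, so that no count can also stand for 1 read. Of the 90 tags, 33 differ in 1 base from a tag at least 10 times more abundant, as described below. Each of those abundant tags was itself read in the 10 low libraries. The lowest of the 8 fetal libraries was LT at 49 dpc for 76 tags and LT at 91 dpc for 33.

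The summed level of the 200 tags was 2186 TPM in LR at 35 dpc and 20862, 18867, 23686 and 19999 TPM at 49, 63, 77 and 91 dpc. It was 2323, 422 and 255 TPM at 2, 28 and 90 dpn. In LT the sum was 2815 TPM at 35 dpc and 6488, 15871, 13088 and 10997 TPM at the 4 fetal ages. After birth it was 1628, 511, 326, 117 and 674 TPM at 2, 28, 90, 120 and 180 dpn. The LT sum was higher at 180 than at 120 dpn, and F104 with 173 TPM and F55 with 143 TPM made up the largest parts of it at 180 dpn. At 49 dpc the sum was 2.09% of all clean tags in LR and 0.649% in LT, and among the fetal ages the 2 breeds were furthest apart here. Without the 5 most abundant tags the sums at 49 to 91 dpc were 5365, 5346, 6031 and 6164 TPM in LR and 3128, 6284, 5162 and 4296 TPM in LT. The low sum of LT at 49 dpc was therefore seen with and without those 5 tags. The 5 tags took 69.2% to 74.5% of the sum in LR and 51.8% to 60.9% in LT.

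**Figure D1:**
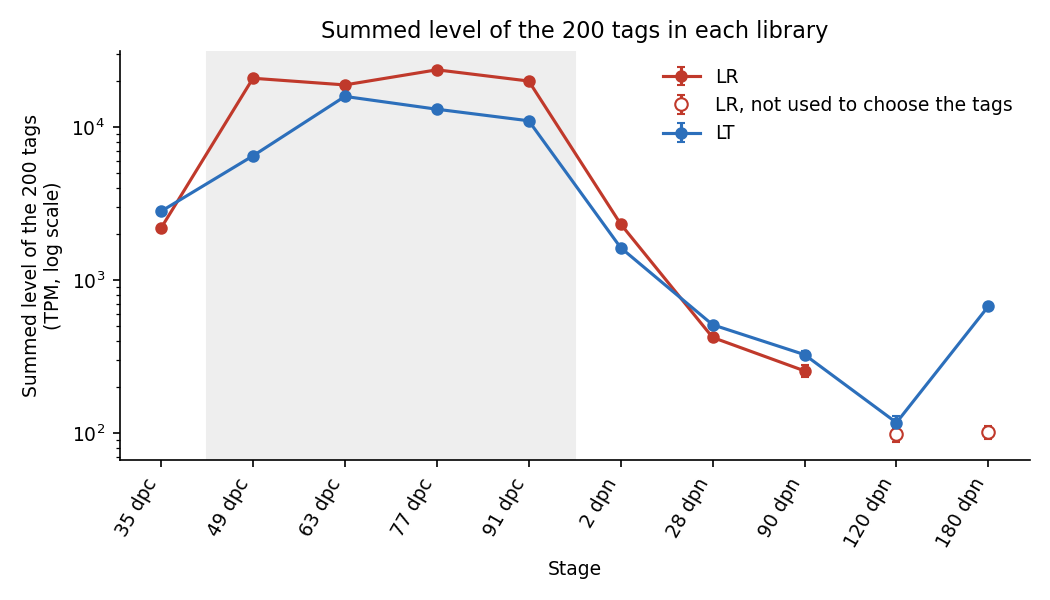
Summed TPM of the 200 fetal tags (log scale) by age in LR (red) and LT (blue), with 95% Poisson intervals that cover counting error only and are mostly smaller than the points. The grey band marks the 8 libraries of 49 to 91 dpc, and the open points mark LR at 120 and 180 dpn, which did not enter the choice and lie at 97.9 and 101 TPM.

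F1 was the tag with the highest ratio. Its level was 3.14, 8.5, 18.7 and 15 TPM at 49, 63, 77 and 91 dpc in LR and 4.92, 28.7, 43.2 and 53.4 TPM in LT, and it had no count in any library outside these ages, those left out of the ratio included. F1 was higher in LT in each of the 4 pairs of fetal libraries. F2 stood at 383, 343, 394 and 416 TPM in LR and 139.8, 284, 187 and 147 TPM in LT, against 39.2 and 36.9 TPM at 35 dpc and 29.2 and 23.3 TPM at 2 dpn. The LR values of F2 lay close together and all above the LT values, of which that of 63 dpc came nearest. F5, the most abundant of the 10, rose from 259.8 to 1084 TPM in LR and from 299 to 1110.1 TPM in LT between 49 and 91 dpc, and stood at 95 and 95.3 TPM at 2 dpn. The mean levels of the other 7 tags ran from 3.74 TPM in F4 to 148 TPM in F7.

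F104 was the most abundant fetal tag. It stood at 6225, 5421, 7096 and 5246 TPM in LR and 1032, 2097, 1988 and 1454 TPM in LT at 49, 63, 77 and 91 dpc, and the 2 breeds did not overlap. Before this, at 35 dpc, it stood at 438 TPM in LR and 650.0 TPM in LT. F55 stood at 1015, 1614, 3803 and 2746 TPM in LR and 832, 1272, 2072 and 2858 TPM in LT, with the highest values at 77 dpc in LR and at 91 dpc in LT. F117 ran from 1591 to 2170 TPM in LR and from 449 to 727 TPM in LT, and F93 from 1163 to 1558 and from 396 to 467 TPM. Both, like F104, were separated between the breeds at all 4 ages.

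**Figure D2:**
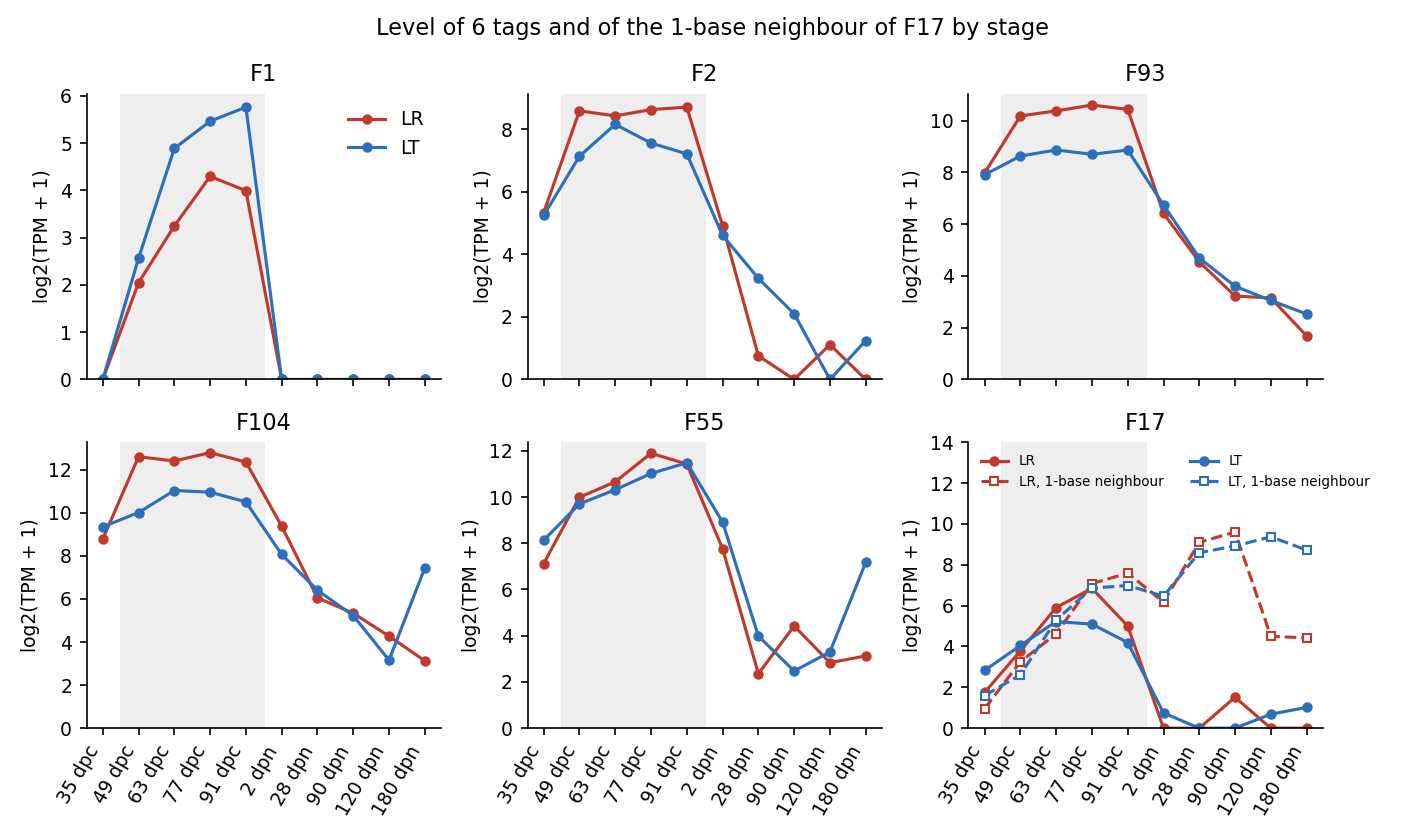
Level of 6 fetal tags as log2(TPM + 1) by age in LR (red) and LT (blue), with the 49 to 91 dpc libraries in grey and, for F17, its 1-base neighbour as dashed lines with open squares. F1 is at 0 outside the grey band, F104 is higher in LR throughout the band, and the neighbour of F17 is the higher of the pair after birth.

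The breeds were compared over the 8 libraries of 49 to 91 dpc, with 1 pool per breed at each age. The ratio did not set one breed against the other, but it was computed from the same 8 libraries and did not draw on the breeds evenly. The lowest fetal library, which entered the ratio, was an LT library for 133 tags and an LR library for 67, and the 10 low libraries were 6 of LT and 4 of LR. The counts and the median over the fetal tags are therefore a description of the tags chosen and not independent evidence of a direction. The breed with the higher level was most often LR. Of the 200 fetal tags, 157 had enough counts to be tested, and 50 of these were called at an adjusted p below 0.05 (edgeR's quasi-likelihood test with age as a block). Of the 50, 42 were higher in LR and 8 were higher in LT. Over all 73299 tags tested, 41.1% were called, 18.5% as higher in LR and 22.7% as higher in LT, so that calls towards LR were 26.8% of the fetal tags tested and calls towards LT 5.10%. The median log2 fold change of LT against LR was −0.63 over the fetal tags tested and 0.16 over all tags tested, and 119 of the 157 were below 0. Of the 42 tags called higher in LR, 35 were higher in LR at all 4 ages, and all 8 of those called higher in LT were higher in LT at all 4 ages. A test with age as a block favours tags that differ in the same direction at each age, so that this agreement adds no support. It was not counted over all tags called. The same holds for the tags below whose LR and LT values did not overlap.

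The largest difference towards LR was that of F196. It stood at 22.8, 26.3, 45.7 and 43.7 TPM in LR and 6.3, 7.65, 9.84 and 2.25 TPM in LT at the 4 ages, and its log2 fold change was −2.69 (SE 0.43, adjusted p = 0.00268). Every LR value of F196 was above every LT value. F164 stood at 24.4, 13.8, 16 and 9.26 TPM in LR and 1.77, 3.06, 3.63 and 3.38 TPM in LT, with a log2 fold change of −2.58 (SE 0.42, adjusted p = 0.0028). F183 ran from 3.32 to 7.65 TPM in LR and from 0.394 to 2.35 TPM in LT, a log2 fold change of −2.39 (SE 0.50, adjusted p = 0.00685). Like F196, F164 and F183 did not overlap between the breeds, and the same held for F49, whose log2 fold change was −2.27 (SE 0.52, adjusted p = 0.00994). F49 had a mean of 3.90 TPM in LR and 0.839 TPM in LT, the latter near the 3 counts taken as detected. The lowest LT value of F183, at 49 dpc, was below 3 counts. Of the 4 abundant tags shown above, 3 were also called, F104 at −2.14 (SE 0.27, adjusted p = 0.00143), F117 at −1.90 (SE 0.24, adjusted p = 0.00137) and F93 at −1.86 (SE 0.22, adjusted p = 0.00123). F55 was not called, at −0.59 (SE 0.24, adjusted p = 0.0735). Of the 10 tags with the highest ratio, F2, F3 and F6 were called higher in LR and F1 higher in LT. The call of F6 was lost without the pair of any one age, with total clean tags, without the low-count filter and without the age block. F3 lost its call without the pair of 77 or 91 dpc, and F1 without either of these pairs or without the age block.

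F167 had the largest difference towards LT. It stood at 1.12, 1.7, 1.62 and 1.19 TPM in LR and 6.69, 10.7, 9.41 and 4.32 TPM in LT, with no overlap, and its log2 fold change was 2.18 (SE 0.37, adjusted p = 0.00319). F156 stood at 0.672, 0.425, 0.812 and 0.475 TPM in LR, which was 2 to 3 counts per library, and at 1.38, 3.44, 4.49 and 4.13 TPM in LT, with a log2 fold change of 2.14 (SE 0.62, adjusted p = 0.0251). F72 and F80 followed at 1.80 (SE 0.54, adjusted p = 0.0283) and 1.49 (SE 0.40, adjusted p = 0.0182). F72 stood at 0.672 and 0.637 TPM in LR at 49 and 63 dpc, which was 3 counts per library. Without the pair of 77 dpc 1 fetal tag was called higher in LT, so that at most 1 of F167, F156, F72 and F80 kept its call. F80 stood at 1.34, 1.91, 1.89 and 4.04 TPM in LR and 4.92, 2.68, 8.77 and 16.9 TPM in LT, so that its LR value at 91 dpc lay within the LT range. F1 was the most abundant of the 8 tags called in this direction, with a log2 fold change of 1.18 (SE 0.30, adjusted p = 0.0147). The 8 tags higher in LT were all of modest level, and the plot of the breed difference against level shows them at the left, with the abundant tags called towards LR at the right.

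**Figure D3:**
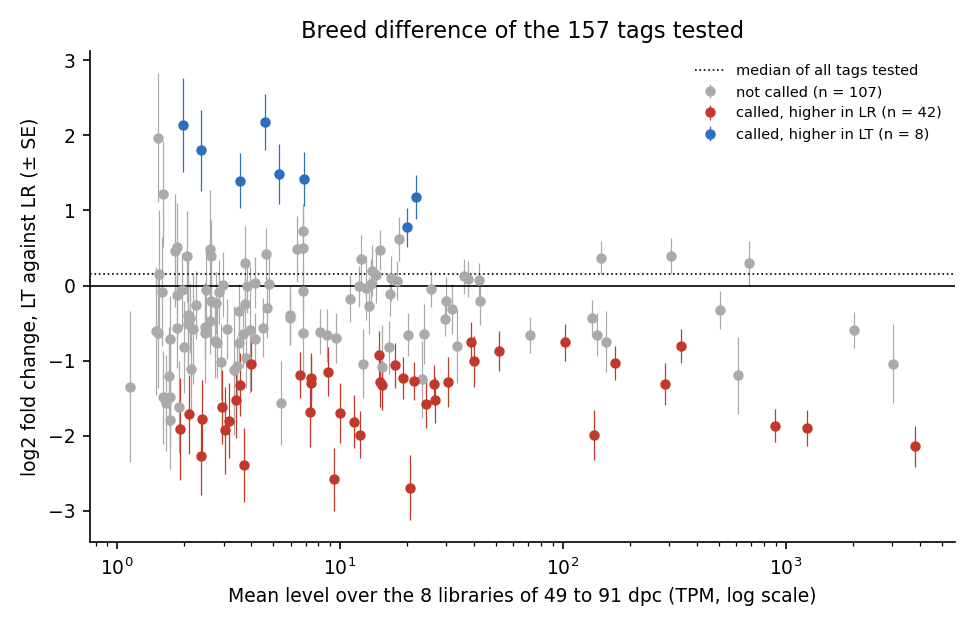
log2 fold change of LT against LR (± SE) for the 157 fetal tags tested, against their mean TPM over the 8 libraries of 49 to 91 dpc (log scale). The 42 tags called higher in LR (red) run up to the most abundant tag, the 8 called higher in LT (blue) lie at 21.9 TPM or below, and the dotted line is the median of all tags tested, 0.16.

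The count of calls rested on the 77 dpc libraries more than on others, over the fetal tags and over all tags alike. Without the pair of 77 dpc, 15 of 151 fetal tags tested were called higher in LR and 1 higher in LT. Over all 67988 tags tested in that setting, 6677 were called higher in LR and 7800 higher in LT. Without the pair of 91 dpc the calls were 29 and 3 of 150 fetal tags, and 9007 and 10231 of all 66410 tags. With libraries scaled by their totals of clean tags rather than by TMM, the median of all tags rose by 0.23, the calls over all tags split into 20083 higher in LT and 10389 higher in LR in place of 16622 and 13533, and the fetal tags into 10 and 30. Relative to the median of all tags, the median of the fetal tags was −0.78 with TMM and −0.79 with total clean tags. The share of tags that hold a second CATG, a further site of the enzyme, was 2.62% to 2.87% in the 4 fetal LR libraries and 3.45% to 3.80% in the 4 fetal LT libraries. The breeds did not overlap in this share and it cannot be told apart from breed. With it as a covariate no fetal tag and none of all tags was called by edgeR, with 1362 of all tags at an unadjusted p below 0.05. The median of the fetal tags tested then turned to 0.50, against −0.09 over all tags, and 93 of the 157 were above 0. This fit estimates age, the share and breed from 8 libraries, so that few degrees of freedom remain. The lost calls and turned signs can therefore not be read either way.

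By age, the number of the 200 tags that were higher in LR was 135 at 49 dpc, 96 at 63 dpc, 129 at 77 dpc and 125 at 91 dpc. Over the 58626 tags found in all 8 fetal libraries the share higher in LR ran from 45.0% to 47.4%, against 67.5%, 48.0%, 64.5% and 62.5% of the fetal tags. The pair of 63 dpc thus stood apart from the other 3. LT at 63 dpc was the shallowest of the 8 libraries, with 2615631 clean tags against 3694014 to 5322022 in the others. The part of depth in this pattern was not tested. A difference between the breeds in the slope over age was not called for any of the 157 fetal tags tested (edgeR), 3 of which were at an unadjusted p below 0.05, and DESeq2 also called 0 of the fetal tags. Over all tags 1 of 73299, or 0.00136%, was called.

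Among the 4 fetal ages the level was most often highest at 77 dpc in LR but at 63 dpc in LT. In LR, 34, 46, 82 and 38 of the 200 fetal tags were highest at 49, 63, 77 and 91 dpc, or 17%, 23%, 41% and 19%, against 25.3%, 26.3%, 24.1% and 24.3% of the 58626 tags found in all 8 fetal libraries. In LT, 17, 101, 44 and 38 fetal tags, or 8.50%, 50.5%, 22% and 19%, were highest at these ages, against 29.8%, 27.4%, 16.7% and 26.1%. The ratio set the lowest fetal level against the levels at 35 dpc and 2 dpn, among others. The choice may therefore bear on the age of the highest level, which was not tested. Nothing is read from the difference to the 58626 tags. The 2 breeds had their highest level at the same age for 63 fetal tags, or 31.5%, against 26.4% of the 58626 tags. With TMM scaling, chosen after seeing the data, 74 fetal tags were highest at 77 dpc in LR and 83 at 63 dpc in LT. Among the 65 tags at 10 TPM or more the LT count at 63 dpc was 31 by total clean tags and 22 with TMM, when 77 dpc with 26 tags became the most frequent age. These are counts over single libraries and carry no test.

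**Figure D4:**
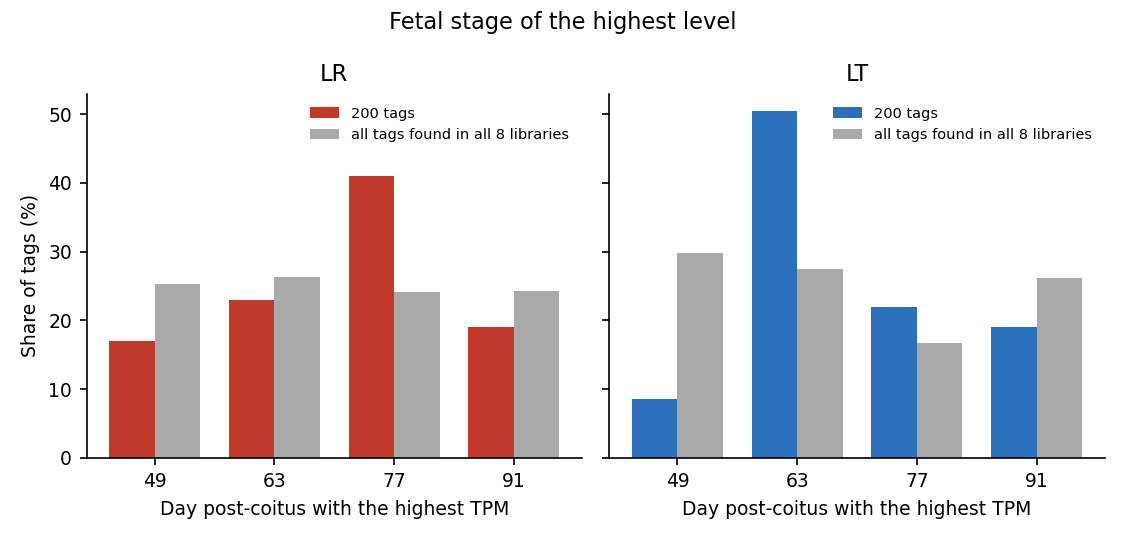
Share of tags whose highest TPM fell at 49, 63, 77 or 91 dpc, for the 200 fetal tags (coloured bars) and for all 58626 tags found in all 8 fetal libraries (grey bars), in LR and LT. The coloured bars reach 41% at 77 dpc in LR and 50.5% at 63 dpc in LT.

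From 49 to 63 dpc, 165 of the 200 fetal tags were higher at the later age in LT and 121 in LR. These were 82.5% and 60.5%, against 48.8% and 56.3% of the 58626 tags. The median log2 step in LT was 0.55 over the fetal tags and −0.02 over the 58626 tags, and 52 fetal tags, or 26.0%, were at least 2-fold higher, against 12.5%. With TMM scaling 155 fetal tags were higher and 39 at least 2-fold higher. From 63 to 77 dpc, 116 of the fetal tags (58%) were higher at the later age in LR and 73 (36.5%) in LT, against 45.3% and 50.1% of the 58626 tags, and with TMM scaling the LT count was 102, or 51%, against 61.0%. From 77 to 91 dpc, 68 (34%) were higher at the later age in LR and 74 (37%) in LT, against 46.3% and 49.97%. All of these levels had entered the choice of the tags, so that the shares are a description and not independent evidence of a step.

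A linear slope over the 4 ages, which need not be steady from age to age, was called for few of the fetal tags. Of 140 that had enough counts to be tested for a slope with breed as a block, 4 were called (edgeR), or 2.86%, against 1.58% of all 60861 tags tested, 1.03% rising and 0.552% falling. By direction, 2.14% of the fetal tags tested were called rising and 0.714% falling. The libraries tested had also entered the ratio, and what this did to the share of rising tags was not tested. These shares are therefore a description and not independent evidence of a slope. F1 rose by 0.89 log2 units per 14 days (SE 0.19, adjusted p = 0.045), F5 by 0.62 (SE 0.13, adjusted p = 0.0388) and F55 by 0.59 (SE 0.12, adjusted p = 0.0357). F153 fell, from 6.27 to 0.475 TPM in LR and from 3.54 to 0.564 TPM in LT (2 and 3 counts at 91 dpc), with a slope of −1.17 (SE 0.21, adjusted p = 0.0252). The slope of the abundant F104 was 0.04 (SE 0.12, adjusted p = 0.932). None of these 4 calls was kept in every alternative. Between 0 and 1 fetal tags were called rising and 0 falling when the pair of any one age was left out, and 0 were called without the breed block or in either breed alone.

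Neighbours that differed in 1 base were common among the fetal tags. A neighbour was counted where it differed in 1 of the 17 bases after CATG and was at least 10 times more abundant over all libraries. Such a neighbour was found for 41 of the 200 tags, or 20.5%, against 4.18% of the 58626 tags found in all 8 fetal libraries and 3.76% of the 41511 of them with a mean between the quartiles of the fetal tags (1.65 to 15.4 TPM). The 41 tags had 21 different neighbours. For 18 of them the neighbour was itself a fetal tag and for 23 it was not, and for 10 of those 23 tags the neighbour had a ratio below 1. The level of the 41 tags was 0.0194% to 49.7% of that of the neighbour, with a median of 0.0929%, and 38 were below 1%. For comparison, all 51 possible 1-base neighbours of each of the 77 tags at 1000 TPM or more were looked up, and 95.8% of these 3927 sequences were present, at a median of 0.0361% of the abundant tag, with 5% of them above 0.254%. Of the 41 tags, 33 had no count in the 10 low libraries. They carried 0.902% of the summed mean level of the 200 tags, which left 159 tags without such a neighbour.

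Families are shown with the differing base in capitals. The substitutions are given from the abundant tag to the rarer one, with positions counted from 1 at the C of CATG. F104 had 4 rarer neighbours among the 200 tags, of which 2 are shown.
F82 (A8G): catgaagGtcaagattattgc
F18 (C10T): catgaagatTaagattattgc
A tag with 6 rarer neighbours among the fetal tags is not itself among the 200.
F57 (A6G): catgaGatgtgacattgatat
its neighbour: catgaAatgtgacattgatat

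The rarer tags stood at a small share of the abundant ones. F82 stood at 0.0323% to 0.201% of F104 and F18 at 0.042% to 0.237%. In both the highest share was in LT at 63 dpc, and levels of this size rest on few counts. The abundant tag outside the 200 had 9223, 11099.9, 14385 and 9935 TPM in LR and 3309.7, 4668, 5007 and 3889 TPM in LT at 49, 63, 77 and 91 dpc, and its ratio of 1.33 placed it at position 230 of all tags. F4, the fourth by ratio, was itself of this kind, at 0.3% of a tag with a mean of 1246 TPM. When tags 1 base apart were merged before the ranking, 153 of the 200 were still chosen. Of the 50 tags called between the breeds, 9 had a more abundant 1-base neighbour, and all 9 calls were towards LR. They were 34.6% of the 26 tags with such a neighbour that were tested. Among the 131 tested tags that lacked one, 33 calls were towards LR and 8 towards LT. The 9 calls are not independent of each other. F27, F57, F97 and F118 share the abundant tag outside the 200 as neighbour, and F30 and F82 share F104. Both of these neighbours stood higher in LR at each of the 4 fetal ages. The part of sequencing error in the rarer tags was not tested.

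**Figure D5:**
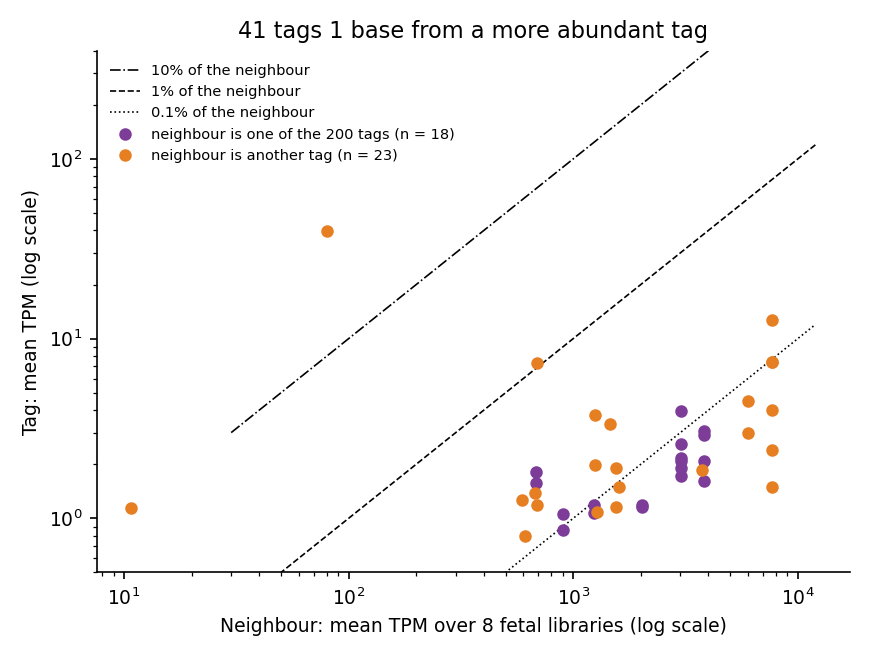
Mean TPM over the 8 fetal libraries of the 41 fetal tags with a more abundant 1-base neighbour, against the mean TPM of that neighbour (both log scales), with lines at 10%, 1% and 0.1% of the neighbour. Below the 1% line lie 38 of the 41 points, and F17 is the point at 39.9 TPM, above the 10% line.

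F17 departed from this pattern, and it was singled out after its values were seen. It differs from its neighbour in the last base (G21C).
F17: catgaagttcatgaaccagaC
its neighbour: catgaagttcatgaaccagaG
F17 stood at 12.8, 58.9, 114 and 31.1 TPM in LR and 15.6, 36.3, 33.1 and 17.3 TPM in LT at 49, 63, 77 and 91 dpc, and its neighbour at 8.51, 23.6, 134 and 192 TPM and 5.12, 38.2, 115 and 126 TPM. F17 was thus the more abundant of the pair at 49 dpc in both breeds and the less abundant at 91 dpc. Its share of the pair was 71.4% in LR and 75% in LT at 35 dpc, from 10 and 4 counts of the 2 tags in LR and 18 and 6 in LT, then 60, 71.4, 45.9 and 14% in LR and 75.2, 48.7, 22.4 and 12.1% in LT over the fetal ages. After birth the neighbour stood at 71.2, 547 and 777 TPM in LR and 87.2, 386 and 482 TPM in LT at 2, 28 and 90 dpn. At 120 and 180 dpn it stood at 662 and 420.1 TPM in LT but at 21.6 and 20.5 TPM in LR, and both tags of the pair hold a second CATG, which these 2 LR libraries held in 0.116% and 0.224% of their clean tags. F17 stood at no more than 1.85 TPM in any postnatal library. Between 49 and 91 dpc the tag read from this pair thus went from mostly F17 to mostly its neighbour in both breeds.

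In 2 cases a fetal tag with a second CATG overlapped another fetal tag. These tags were also singled out after their values were seen.
F14: CATGCATGataaagaataata
F2: CATGataaagaataataataa
F42: CATGCATGaggaggagggaag
F10: CATGaggaggagggaagaggg
From base 5 on, F14 is identical over 17 bases to the start of F2, and F42 is so to F10. F14 stood at 1041, 579, 407 and 1163 TPM in LR and 294, 813, 410.3 and 198.2 TPM in LT, and its level was 1.03 to 2.87 times that of F2 in the 8 fetal libraries. F42 was lower than its partner, at 0.0812 to 0.257 times F10. The order within the pair was thus opposite in the 2 cases. Other sequence features were counted as well. The median GC content of the 17 bases was 41.2% both in the 200 and in the 58626 tags found in all 8 fetal libraries. In the 159 fetal tags without a more abundant 1-base neighbour it was 47.1%. A second CATG was present in 6 fetal tags (3.00% against 3.51%), and AATAAA, the usual polyadenylation signal, read on the strand of the tag, in 3 (1.5% against 1.65%).

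LR at 120 and 180 dpn had not entered the choice of the tags. These 2 libraries stood apart from the rest, with a second CATG in 0.116% and 0.224% of their clean tags against 2.14% to 3.80% in the other 18. At 3 counts or more, 22 of the fetal tags were detected at 120 dpn and 20 at 180 dpn, or 11% and 10%, against 37.1% and 36.8% of the 58626 tags found in all 8 fetal libraries. The summed level was 97.9 TPM (95% Poisson interval 87.8 to 109) and 101 TPM (90.8 to 112). In LT, whose libraries of these ages did enter the choice, 33 and 45 were detected, or 16.5% and 22.5%, against 64.3% and 66.4% of the 58626 tags. F163 had the highest summed level over the 2 libraries, 16.9 and 24.6 TPM, against 200.9, 265, 267 and 139.8 TPM at 49 to 91 dpc in LR. F166 had 8.45 and 18.5 TPM, against 68.1, 82.7, 64.7 and 38 TPM. F117, which was among the 5 most abundant fetal tags, had no count in either library.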

How the data were processed

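DGE libraries of longissimus muscle were made from 1 pool of 3 animals for each of 2 breeds and 10 ages. For each library the authors deposited the raw count of every distinct 21-base clean tag, after removal of adaptor tags, low-quality tags and tags seen once, and the same count as TPM, rounded to 2 decimals. The ratio that chose the 200 fetal tags used TPM computed from the counts with a pseudocount of 1. The tags and the lists were chosen with earlier results of these data known. Tests used the counts with edgeR 4.0.16 in R 4.3.3 (quasi-likelihood test, TMM, low-count filter), with Benjamini-Hochberg adjustment over all tags tested. DESeq2 1.42.0 was an alternative. Age was a block in the breed comparison and breed in the slope. The SE of a log2 fold change or slope was its absolute value over the square root of the quasi-likelihood F statistic. The tests were tested on simulated data. Named tags were the 10 highest ratios, the 5 highest levels, up to 4 called tags per direction and comparison with the largest change, the 2 highest in LR at 120 and 180 dpn, those beside the limit, and up to 4 pairs of fetal tags 1 base apart, by level. One tag that this rule names, with its pairs, is not reported here. F14, F17, F42 and F57 were added after their values were seen. PCR copies are not independent molecules, so that intervals and floors cover counting error only. Python 3.11.15 with pandas 2.3.3 and numpy 2.4.6 handled the tables.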

Additional observations from a re-analysis of the deposited data

Results flagged for a closer look

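Values in 2 libraries lay outside the data that chose the tags. LR at 120 dpn, left out of the choice, held 22 of the 200 fetal tags at 3 counts or more, the smallest amount taken as detected, and LR at 180 dpn held 20. These were 11% and 10%, against 37.1% and 36.8% of the 58626 tags found in all 8 fetal libraries. F163, with the highest summed level over the 2 libraries, had 58 and 89 counts there.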

How the results depend on the processing

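With 1 pool per breed and age, depth limited what could be tested: 43 of the 200 fetal tags could not be tested between the breeds and 60 not for a slope, and the cause of each change below was not tested. Of the 200 tags, 132 were kept with a pseudocount of 5 TPM, 60 with the mean in place of the minimum of the fetal libraries, 68 with the mean in place of the maximum of the low libraries, and 86 (without LR at 35 dpc) to 196 when 1 library was left out, with 118 without LT at 49 dpc and 126 without LT at 35 dpc. With the share of a second CATG as covariate, 0 tags and 0 fetal tags in either direction were called between the breeds, and the log2 fold change changed sign to 0.29 for F3, 2.35 for F6, 1.71 for F49, −0.015 for F72, 3.75 for F82, 0.37 for F163, 2.46 for F164, 1.75 for F166 and 1.73 for F183. The fit with this covariate leaves few degrees of freedom, so that its signs cannot be read either way. Without the age block 5 fetal tags were called higher in LT and 38 higher in LR, of 125 tested. Over all 50615 tags tested in that setting, 14437 were called higher in LT and 11900 higher in LR. When 1 pair of libraries was left out, 14477 to 25537 tags were called between the breeds, with 1 to 7 fetal tags higher in LT and 15 to 35 higher in LR. For the slope, 962 tags were called by edgeR and 2241 by DESeq2, which called 2 fetal tags falling. Without the breed block 0 tags were called, with 0 fetal tags rising and 0 falling, and with age as a factor 4 tags were called, again with 0 fetal tags rising and 0 falling. Leaving out 1 pair or 1 breed gave 0 to 355 tags, 0 to 1 fetal tags rising and 0 to 0 falling. For the difference in slope, 1 tag was called by edgeR, 24 by DESeq2, 5 without the low-count filter, 0 with total clean tags and 0 to 15 without 1 pair. At 10 counts or more, 8 fetal tags were detected in LR at 120 dpn and 8 at 180 dpn. No fetal tag was called for the difference in slope under any of these alternatives. Of the tags named in the breed comparison, 136 values under the alternatives kept their call and direction, 41 lost the call and 9 changed sign, the latter only with the covariate.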
